A study of Homo sapiens with 6 samples.

Results

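TM2D1, TM2D2 and TM2D3 make up the human TM2D family. These 3 genes, of 18905 genes analysed in a genome-wide CRISPR interference (CRISPRi) screen, were found by the gene name in front of the strand sign in the name of each single guide RNA (sgRNA). CRISPRi silences a promoter with dCas9-KRAB, a Cas9 that does not cut and that carries a repressor. The screen was run in HEK293 FLP In cells, a human embryonic kidney line, in which a recombined transgene made a delta opioid receptor that carries the recycling sequence of the mu opioid receptor, called DOR-MRS(WT) in the paper, fused to the peroxidase APEX2. All 6 libraries came from such cells, which also carried dCas9-KRAB-BFP and descended from clones picked for strong knockdown, so that they stand for selected clones of 1 line. The cells received sgRNA virus at a multiplicity of about 0.2, were selected with puromycin at 0.75 μg/ml, were grown for 8 days per the labels, and were treated with 10 μM DADLE, an opioid peptide agonist, for 90 min. With 50 μM hydrogen peroxide, APEX2 then turned Amplex UltraRed (AUR, 100 μM) into a fluorescent product, and the top and the bottom fluorescence quartile were sorted. There were 3 sublibraries (H17, H23 and H456), with 1 library of the top and 1 of the bottom quartile each, and no library had a replicate. No sample without agonist was analysed here, so that an effect on receptor made cannot be told apart from an effect on receptor lost after agonist. No RNA was measured, and neither TM2D expression in these cells nor its knockdown was checked.

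TM2D proteins are small membrane proteins with a pair of transmembrane segments, joined by a short loop that holds a conserved Asp-Arg-Phe motif which resembles a motif of G protein–coupled receptors. TM2D1 was first described as a protein that binds the amyloid-beta peptide. In Drosophila, the ortholog of TM2D3 is almondex, and loss of any of the family members from the egg disturbs Notch signaling, with almondex placed near the step at which gamma-secretase cuts Notch. In human macrophage-like cells, TM2D genes have been recovered in a knockout screen for phagocytosis.

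All 3 genes lay in the H456 sublibrary, and the files listed 10 sgRNAs for each, of which 5 had reads and 5 were not in the pool used. The phenotype of an sgRNA was a log2 ratio, its read share among brighter (top quartile) cells over its read share among dimmer (bottom quartile) cells, centered on the median nontargeting control (NTC) sgRNA. A positive phenotype therefore means more reads in the brighter cells, which the paper reads as more receptor left. sgRNAs with at least 50 reads in one library were analysed, which kept 5 of 5 for TM2D1, 5 of 5 for TM2D2 and 4 of 5 for TM2D3. The family was chosen by these same phenotypes, above all that of TM2D3, so that they are given as a description and without a test. The H456 libraries held 29611047 reads in the top quartile and 50486627 in the bottom quartile, with a median of 693 reads per analysed sgRNA in the top and 1187.5 in the bottom quartile. Since the bottom library held more reads, an sgRNA with fewer reads in the top than in the bottom quartile can still have a positive phenotype. Intervals given for single sgRNAs are exact binomial 95% intervals. PCR reads carried no molecular identifiers and are not independent molecules, so that the intervals hold counting error alone.

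The promoters are shown because they are the stretches on which a CRISPRi sgRNA acts. RefSeq sequences were held for TM2D1 and TM2D3 (GRCh38.p14), each from 250 bases before to 50 bases after the annotated start and written 5′ to 3′ in the direction of the gene. A script took every word of at least 8 letters that the 2 promoters share, which gave 5 words, and capitals mark the 3 of these that lie within 10 bases of the same distance from the start.
TM2D1 (chr1:61725092-61725391, minus strand): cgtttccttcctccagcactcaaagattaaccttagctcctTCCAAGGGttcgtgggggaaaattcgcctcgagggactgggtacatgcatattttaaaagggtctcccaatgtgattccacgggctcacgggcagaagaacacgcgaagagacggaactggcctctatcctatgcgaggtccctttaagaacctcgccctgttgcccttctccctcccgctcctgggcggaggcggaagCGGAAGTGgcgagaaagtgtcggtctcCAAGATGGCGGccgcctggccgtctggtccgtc
TM2D3 (chr15:101652332-101652631, minus strand): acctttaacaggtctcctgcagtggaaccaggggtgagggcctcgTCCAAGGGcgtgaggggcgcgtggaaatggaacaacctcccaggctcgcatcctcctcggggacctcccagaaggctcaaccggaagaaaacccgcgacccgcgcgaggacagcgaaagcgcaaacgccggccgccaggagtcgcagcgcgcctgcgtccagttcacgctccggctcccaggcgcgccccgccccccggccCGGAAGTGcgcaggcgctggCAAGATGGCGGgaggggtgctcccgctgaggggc
CAAGATGGCGG, which holds the letters that YY1 is known to bind, began at base 18 after the start of TM2D1 and at base 17 of TM2D3. CGGAAGTG, of the kind that ETS factors bind, began 10 bases before the start in TM2D1 (at −10) and 4 bases before it in TM2D3 (at −4). TCCAAGGG began at −209 in TM2D1 and at −205 in TM2D3. Searched on both strands of 27305 promoters of the same length, CAAGATGGCGG was found in 0.637%, CGGAAGTG in 4.25% and TCCAAGGG in 1.27%, and 16 promoters (0.0586%) held both words nearest the start. Among the 13958 promoters of genes in the screen, the 3 words were found in 0.974%, 6.09% and 1.07%, in the same order. The TM2D3 promoter had 32 CpG dinucleotides and the TM2D1 promoter 21, against a median of 14 over all promoters. The quartiles were 3 and 28, so that TM2D1 lay between them and TM2D3 above them. These are matches of letters and say nothing of what binds there.

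sgRNAs against TM2D3 were more abundant in the top than in the bottom quartile. The minus-strand sgRNA at position 102192531 of the library names had 152 reads in the top and 117 in the bottom quartile, or 5.13 RPM in the top and 2.32 RPM in the bottom quartile (reads scaled to the library total). That gave a phenotype of 1.14 (interval 0.79 to 1.51), a 2.21-fold difference. The minus-strand sgRNA at position 102192534 had 443 reads in the top and 419 in the bottom quartile, for a phenotype of 0.85 (0.65 to 1.04). These were the highest sgRNAs of the family, and 3 and 5 of the 739 NTC sgRNAs of H456 lay above them. A more distant minus-strand sgRNA, at position 102192184, had 237 reads in the top and 282 in the bottom quartile, for a phenotype of 0.52 (0.26 to 0.77), with 26 NTC sgRNAs above it. The plus-strand sgRNA at position 102192535 had 161 reads in the top and 241 in the bottom quartile, for a phenotype of 0.19 (−0.11 to 0.48), with 161 NTC sgRNAs above it. So 3 sgRNAs lay above the 95th percentile of the NTC sgRNAs, which was 0.46, and the fourth lay inside the NTC range. Of all 37215 sgRNAs against genes of H456, 1726 (4.64%) lay above that percentile, and 15 of 7526 start sites (0.199%) had at least 3 sgRNAs above it.

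The fifth sgRNA against TM2D3 went the other way, on very few reads. The plus-strand sgRNA at position 102192556 had 11 reads in the top and 24 in the bottom quartile, under the minimum of 50, and its phenotype would be −0.36 with an interval from −1.54 to 0.73. Its interval spans 0 and the values of the other TM2D3 sgRNAs at positions 102192184 and 102192535, so that its sign was not resolved at this depth. With it the mean of TM2D3 was 0.47 ± 0.58 (SD over 5 sgRNAs), and without it 0.67 ± 0.41 (SD over 4 sgRNAs). The 4 analysed sgRNAs all had positive phenotypes, as in 39 of the 415 H456 genes with 4 analysed sgRNAs (9.4%).

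**Figure D1:**
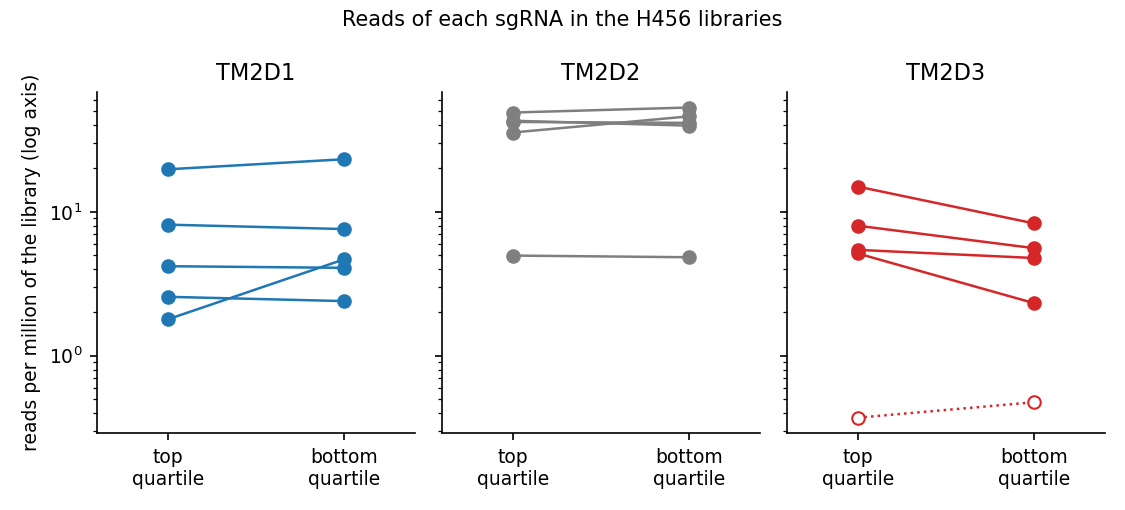
RPM of each sgRNA with reads (points joined by a line, log axis) in the top and bottom quartile libraries of H456, for TM2D1, TM2D2 and TM2D3, with the sgRNA below the read minimum open and dotted. The 4 analysed TM2D3 lines fall toward the bottom quartile, as at the highest phenotype, with 5.13 RPM in the top and 2.32 RPM in the bottom quartile.

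The sgRNAs of TM2D3 did not probe 5 separate sites. On the minus strand, those at positions 102192531 and 102192534 lay 3 bases apart, so that they overlap in most of their target sequence, and their phenotypes differed by 0.30. The plus-strand sgRNA at position 102192535 lay 1 base from that at position 102192534, on the opposite strand, whose phenotype was higher by 0.66. The sgRNA at position 102192184, which was 347 bases or more from all others, was the 1 separate site, at 0.52. The positions are those in the sgRNA names, whose genome build was not stated, and they cannot be set against the promoter coordinates.

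Among the 6956 genes of H456, TM2D3 ranked 2nd from the top by phenotype, and 9th among all 18905 genes. A phenotype of at least 0.5 was reached by 12 genes of H456 (0.173%), TM2D3 among them, and by 33 genes of all sublibraries (0.175%). Among the 6927 H456 genes with at least 4 analysed sgRNAs, SPINT1, a membrane-bound inhibitor of serine proteases, ranked directly above it at 0.79 ± 1.15 (SD over 5 sgRNAs), with sgRNAs from −0.17 to 2.64. ST7L, directly below, had 0.62 ± 1.00 (SD over 5 sgRNAs), and 4 of 5 sgRNAs were positive for each of these. TANK, a scaffold protein of NF-κB and interferon signaling, came next at 0.60 ± 0.31 (SD over 5 sgRNAs), with all 5 positive. The SD of TM2D3, 0.41 over 4 sgRNAs and 0.58 with its sgRNA of few reads, was smaller than those of SPINT1 and ST7L. These SDs are not like for like, since 2 of the TM2D3 sgRNAs overlap in most of their target. These ranks describe the contrast from which the family was chosen, and nothing is read from them.

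**Figure D2:**
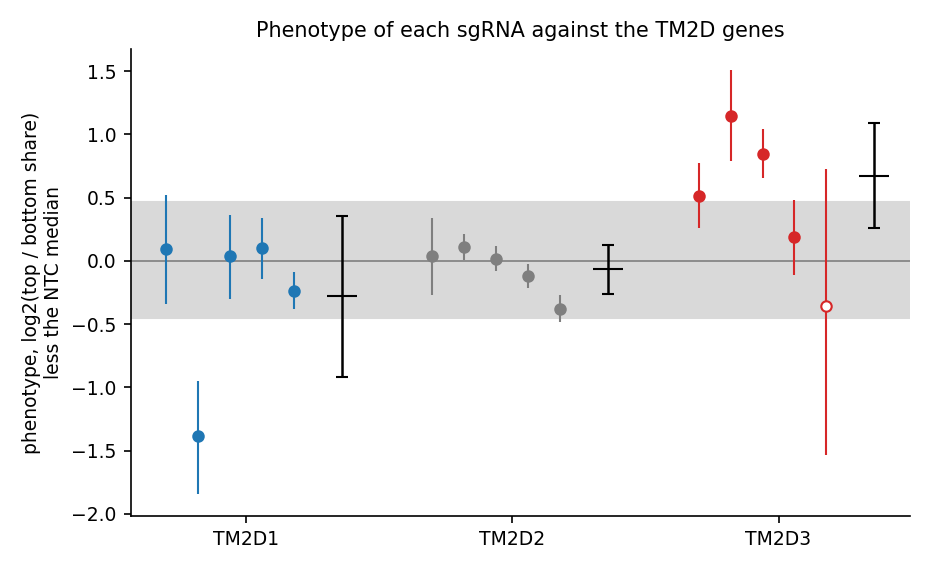
Phenotype of each sgRNA (points, log2 scale, positive where reads were more frequent in the top quartile) with its exact binomial 95% interval (counting error only), in order of position, the gene mean with the SD over analysed sgRNAs (black), and, in gray, where 739 NTC sgRNAs of H456 lay between their 5th and 95th percentiles. For TM2D3, 3 sgRNAs lie above the gray range, whereas for TM2D2 all 5 lie inside it and for TM2D1 1 lies far below it.

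TM2D1 had a phenotype of −0.28 ± 0.63 (SD over 5 sgRNAs), which came from 1 sgRNA. The minus-strand sgRNA at position 62190742 had 53 reads in the top and 236 in the bottom quartile, for a phenotype of −1.39 (interval −1.85 to −0.95), below all but 3 of the NTC sgRNAs. Of the sgRNAs against H456 genes, 5.97% lay below the 5th percentile of the NTC sgRNAs, as this one did. The plus-strand sgRNA at position 62190743, 1 base away on the opposite strand, had 124 reads in the top and 206 in the bottom quartile, for a phenotype of 0.04 (−0.30 to 0.36). The phenotype at position 62190742 less that at position 62190743 was −1.42, and their intervals, which hold counting error alone, did not overlap. NTC sgRNAs with as many reads as those of TM2D1 had an SD of 0.36. How often 2 sgRNAs of a gene differ by so much was not counted.

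The 3 other sgRNAs against TM2D1 lay inside the NTC range. The plus-strand sgRNA at position 62190730 had 76 reads in the top and 121 in the bottom quartile, for a phenotype of 0.10. On the minus strand, that at position 62190776 had 241 reads in the top and 383 in the bottom quartile, also for 0.10, and the plus-strand sgRNA at position 62190800 had 584 reads in the top and 1170 in the bottom quartile, for −0.24 (−0.38 to −0.09). All 5 sgRNAs lay within 70 bases. Without the sgRNA at position 62190742 the phenotype of TM2D1 was −0.00117. Of the 6458 H456 genes with 5 analysed sgRNAs, 171 (2.65%) had an SD over sgRNAs at least as large as that of TM2D1. By phenotype TM2D1 ranked 290th from the bottom of H456, and 4.15% of the genes lay lower. Among the 6512 H456 genes with at least 5 analysed sgRNAs, its neighbors in rank were ZNF7, a zinc finger protein, and SLC35G3, a member of a transporter family, both at −0.28, and FZD5, a Wnt receptor, and MBD3L1, a relative of a methyl-CpG binding protein, which were also at −0.28. SLC35G3 reached that mean with all 5 sgRNAs negative and an SD of 0.08, whereas 3 of the 5 TM2D1 sgRNAs were positive.

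TM2D2, whose gene lies on chromosome 8, had a phenotype of −0.07 ± 0.19 (SD over 5 sgRNAs) and was measured on the most reads of the family. The plus-strand sgRNA at position 38853674 had 1270 reads in the top and 2002 in the bottom quartile, for a phenotype of 0.11 (interval 0.00815 to 0.21). The minus-strand sgRNA at position 38853977 had 1246 reads in the top and 2093 in the bottom quartile, for 0.02, and that at position 38854004 had 1448 reads in the top and 2676 in the bottom quartile, for −0.12. The lowest was the plus-strand sgRNA at position 38854018, with 1052 reads in the top and 2324 in the bottom quartile and a phenotype of −0.38 (−0.48 to −0.27). On 147 reads in the top and 244 in the bottom quartile, the minus-strand sgRNA at position 38853624 had 0.04. None of the 5 lay outside the 5th to 95th percentile of the NTC sgRNAs, from −0.45 to 0.46, and 3 were positive and 2 negative. In rank among the same 6512 genes, SALL4 and ZNF616, a transcription factor of stem cells and a zinc finger protein, stood directly above, and OXGR1, a G protein–coupled receptor for 2-oxoglutarate, and LRRC63 directly below, all at −0.07.

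Next to TM2D2 lay the sgRNAs of ADAM9, a membrane-bound metalloprotease, the closest 471 bases away. The mean of ADAM9, which was in H23, was 0.02 ± 0.20 (5 sgRNAs, two-sided exact Mann-Whitney test set against NTC sgRNAs, adjusted p = 0.962). The lowest ADAM9 sgRNA had 907 reads in the top and 944 in the bottom quartile, for −0.30, and the highest had 1193 reads in the top and 875 in the bottom quartile, for 0.20. Of its 5 sgRNAs, 4 were positive. No library gene had an sgRNA within 1000 bases of those of TM2D1 or TM2D3.

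Between the members, the analysed sgRNAs of TM2D3 lay above those of TM2D1 and TM2D2. The family was chosen above all by the phenotype of TM2D3, so that nothing is read from this gap. How often other genes of H456 are so separated was not counted. The lowest analysed TM2D3 sgRNA, at 0.19, lay above the highest of TM2D2, at 0.11, and of TM2D1, at 0.10. The mean of TM2D3 was 0.74 above that of TM2D2 and 0.95 above that of TM2D1, whereas those of TM2D2 and TM2D1 differed by 0.21 and their ranges overlapped. The sgRNA of TM2D3 with 35 reads in all would fall inside the ranges of both other genes. These differences come from 1 sort, carry no test, and do not show that loss of the genes acts differently, since the knockdown by each sgRNA is unknown.

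**Figure D3:**
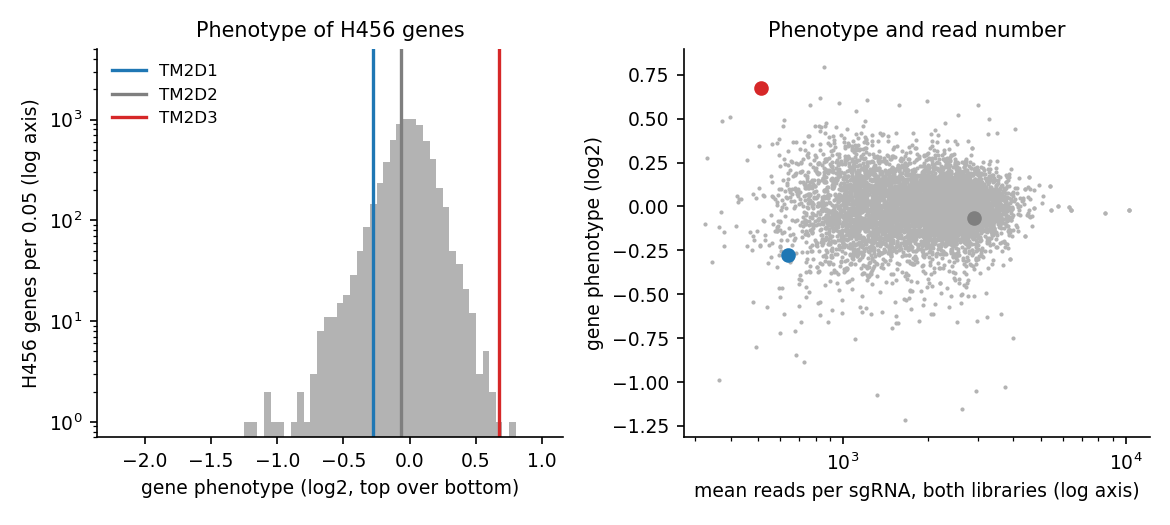
Left, number of H456 genes (log axis) by phenotype in bins of 0.05, with the TM2D genes as lines; right, phenotype of each H456 gene (gray points) against its mean reads per sgRNA summed over the top and bottom libraries (log axis), with TM2D1 in blue, TM2D2 in dark gray and TM2D3 in red. TM2D3 lies at 513.0 reads and TM2D1 at 638.8 reads, at the sparse left edge, and TM2D2 lies at 2900.4 reads.

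Read numbers differed between the members of the family. The phenotypes by which it was chosen are ratios of these same reads and spread more widely at few reads. Read number is therefore not independent of that choice. Per analysed sgRNA, summed over the top and bottom libraries, TM2D3 had a mean of 513.0 reads and TM2D1 of 638.8 reads, against a median of 2053 reads over the genes of H456. Only 0.431% of the H456 genes had fewer reads than TM2D3, and 1.44% fewer than TM2D1, while 85.3% had fewer than TM2D2. The unanalysed TM2D3 sgRNA is not in its mean, and would lower it. No library from before the sort was analysed here, so that sgRNAs that were rare in the pool and sgRNAs lost during growth cannot be told apart.

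sgRNAs with few reads had a wider spread. Of the NTC sgRNAs, 117 had as many reads as those of TM2D3, between 269 and 862, and their SD was 0.42, against 0.30 for all 739. Their 95th percentile was 0.70, above which 2 of the 4 TM2D3 sgRNAs lay, at 1.14 and 0.85, and 1 of the 117 lay above the highest. Of 5479 sgRNAs against H456 genes in that range of reads, 722 (13.2%) lay above the percentile of all NTC sgRNAs and 749 (13.7%) below the 5th, so that the wider spread ran in both directions. Of the 333 NTC sgRNAs with 197 to 1754 reads, as those of TM2D1, 3 lay below its lowest sgRNA. That sgRNA had 289 reads, near the low end of this range, and NTC sgRNAs near that depth alone were not counted. The part of read number in the phenotypes of TM2D3 and TM2D1 was not tested.

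The same held for genes. Of the H456 genes, 247 had a mean read number within 1.5-fold of that of TM2D3, and the SD of their phenotypes was 0.26, against 0.13 for the 3791 genes so matched to TM2D2. TM2D3 had the highest phenotype of these 247, but the family was chosen by that phenotype, so that nothing is read from this place. Among the 247 genes, 3 (1.21%), TM2D3 included, had a phenotype of at least 0.5, and 13 (5.26%) had one of at most −0.5. Of the 581 genes matched to TM2D1 in the same way, 61 lay lower than TM2D1.

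The genes around gamma-secretase were listed because the fly relatives of the TM2D genes act on Notch. Gamma-secretase is a protease in the membrane that cuts Notch receptors and the amyloid precursor protein. Each gene was tested by an exact two-sided Mann-Whitney test in which its sgRNAs were ranked among the NTC sgRNAs of the same sublibrary, and p-values were adjusted after Benjamini and Hochberg over 18905 genes. By this test 18 genes (0.0952%) were called with more reads in the top quartile and 72 (0.381%) with more in the bottom quartile at an adjusted p of 0.05. None of the 5 gamma-secretase genes tested here was called in either direction, and 1 had an unadjusted exact p under 0.05, as had 8.12% of all genes. The units of this test are sgRNAs, so that it compares the libraries of 1 sort and not repeated sorts.

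Of these 5 genes, all in H23, 4 had a positive phenotype, where 50.4% of all genes did, with a median of 0.10 against 0.00130 over all genes. PSEN2, a catalytic subunit, had the highest at 0.30 ± 0.17 (SD over 5 sgRNAs, all positive, exact p = 0.00538, adjusted p = 0.294). NCSTN, the substrate receptor nicastrin, had 0.10 ± 0.27, and APH1A, a scaffold subunit, had 0.10 ± 0.18. PSENEN, which activates the enzyme, had 0.06 ± 0.15, and APH1B, the alternative scaffold, had −0.11 ± 0.12 (SD over 5 sgRNAs each). None of these values reached that of TM2D3. Little can be read from this, since the family was chosen above all by that phenotype. The complex also lay in another sublibrary, and the difference was not tested.

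Of 19 genes of the Notch pathway (receptors, ligands, sheddases and nuclear partners), none was called, and 1 had an unadjusted exact p under 0.05. The list had 10 positive and 9 negative phenotypes and a median of 0.01. NOTCH1, a receptor, was the highest at 0.21 ± 0.16 (SD over 5 sgRNAs, all positive, adjusted exact p = 0.578), and NUMB, which opposes Notch at endosomes, was the lowest at −0.19 ± 0.21 (SD over 5 sgRNAs, all negative, adjusted exact p = 0.713). Both genes had 2 start sites, and the values are those of the site with the lower p, a choice that favors the more extreme site. Of 5 genes of the amyloid precursor family and the beta-secretases, none was called and none had an unadjusted exact p under 0.05. BACE1, the main beta-secretase, was the highest at 0.17 ± 0.47, and APLP1, a relative of the amyloid precursor protein, the lowest at −0.16 ± 0.33 (SD over 5 sgRNAs each, adjusted exact p = 0.882 and 0.820). APP itself had −0.00801 ± 0.17.

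**Figure D4:**
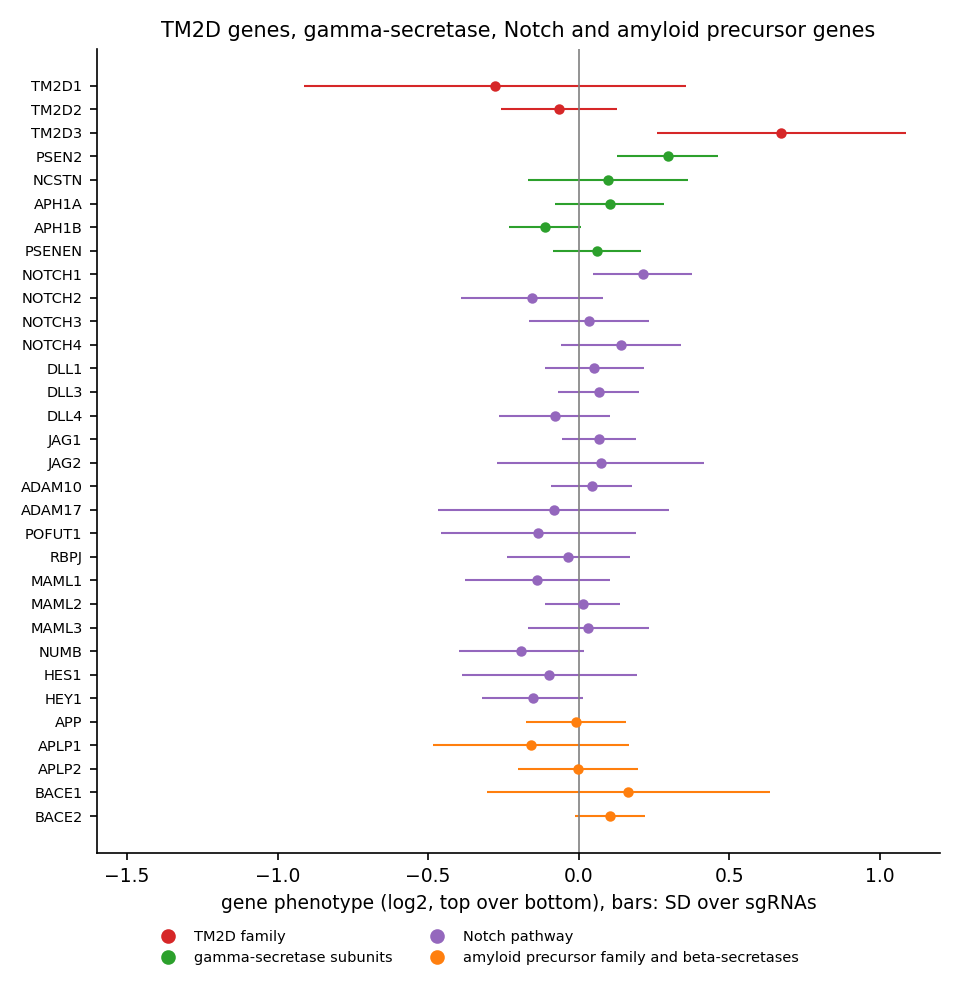
Gene phenotype (points, log2 scale) with the SD over sgRNAs (bars) for the TM2D genes and for 29 genes of gamma-secretase, the Notch pathway and the amyloid precursor family. Outside the TM2D genes, the phenotypes lie between −0.19 (NUMB) and 0.30 (PSEN2), and TM2D3 lies at 0.67.

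The means of TM2D1 and TM2D2 depended on how sgRNAs were combined. All 4 analysed sgRNAs of TM2D3 were positive, so that no summary over them could turn its sign. As the median over sgRNAs, TM2D3 was at 0.68, TM2D1 at 0.04 and TM2D2 at 0.02, so that TM2D1 and TM2D2 turned sign. As the mean of the 3 strongest sgRNAs, TM2D3 was at 0.84, TM2D1 at −0.51 and TM2D2 at −0.13. Without the strongest sgRNA, TM2D3 was at 0.52, TM2D1 at −0.00117 and TM2D2 at 0.01. Summing the reads of a gene before taking the ratio, with 993 reads in the top and 1059 in the bottom quartile, gave 0.67 for TM2D3. For TM2D1 the 1078 reads in the top and 2116 in the bottom quartile gave −0.21, and for TM2D2 the 5163 reads in the top and 9339 in the bottom quartile gave −0.09.

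**Figure D5:**
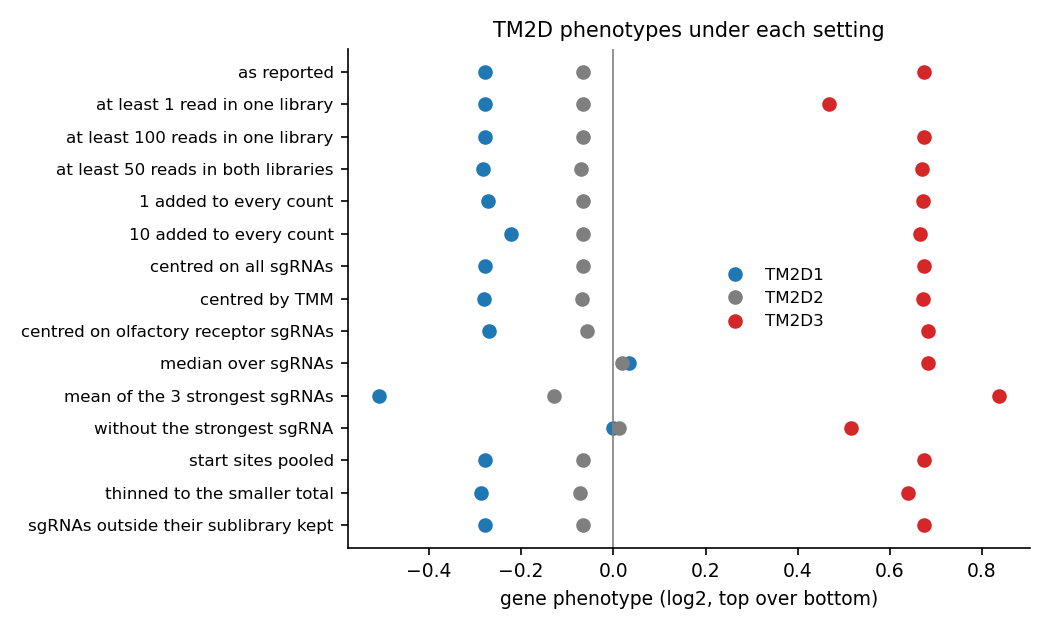
Phenotype of each TM2D gene (points, log2 scale) as reported and under 14 alternative settings. TM2D3 lies between 0.47 and 0.84 under all of them, TM2D1 between −0.51 and 0.04, and TM2D2 between −0.13 and 0.02.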

How the data were processed

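The authors made PCR products of the integrated sgRNAs (27 cycles), sequenced them and counted reads per sgRNA. Each of the 6 deposited tables holds raw counts for 209070 sgRNAs, with no normalization, and 23426498 to 50486627 reads in all. The genome build behind the sgRNA names was not stated.

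An sgRNA was used with 50 or more reads in one library of its sublibrary and 10% or more of its reads there. A gene belonged to the sublibrary with the largest number of its sgRNAs and needed 2 of them at one start site. Its phenotype averaged the sgRNAs of that site, or of the site with the lower p where there were several. Each TM2D gene had 1 site. If a count was 0, both counts of that sgRNA were raised by 1. Since a quartile had 1 library, edgeR and DESeq2 had no replicates to work on. The exact Mann-Whitney test was used instead, and TMM factors from edgeR (4.0.16) served as an alternative centering. Python 3.11.15, SciPy 1.17.1 and R 4.3.3 were used. The test was checked on simulated counts with normal noise of the same SD for all sgRNAs of a sublibrary. That check does not cover noise with long tails or noise beyond counting error that grows at few reads.

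The members, the 3 gene lists and the rule for named genes (the gamma-secretase genes, list genes that were called, the extremes of the other lists, genes within 1000 bases, and up to 2 genes above and below each member in rank) were chosen with earlier results of these data known. The promoter words, the comparisons matched on reads and APP among the named genes were added after the values were seen. The labels give 8 days of knockdown, as do the results of the paper, and 90 min of agonist. The methods of the paper give other times for both. Quartiles were taken from the sample titles, since the letters that close the library names point the other way. One list gene and one control gene are not reported here.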

Additional observations from a re-analysis of the deposited data

Results flagged for a closer look

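Reads of H456 sgRNAs against the TM2D genes also appeared in the libraries of the other sublibraries, which the report does not use, in single libraries at more than the 3 reads that a count of 0 allows. The most reads in one such library were 12, 9, 9 and 6 for the TM2D2 sgRNAs at positions 38854018, 38854004, 38853977 and 38853674, 5 for the TM2D1 sgRNA at position 62190800, and 4 for the TM2D3 sgRNA at position 102192534. In all, 0.562% of the reads of TM2D2, 0.684% of those of TM2D1 and 0.429% of those of TM2D3 lay outside H456. Such reads were not particular to these genes. H456 sgRNAs as a whole made up 1.87% of the reads of H17 and 0.794% of those of H23, which are shares of another total.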

How the results depend on the processing

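Under 14 alternatives (read minimum, added counts, centring, summary over sgRNAs, start sites, thinning, membership), each TM2D phenotype stayed within 1 SD over sgRNAs of its reported value. That is a wide measure, since the SD of TM2D1, 0.63, holds its change of sign. Pooling start sites, keeping sgRNAs outside their sublibrary and centring on all sgRNAs left the TM2D values unchanged. TM2D3 was positive under all 14 (0.47, with its sgRNA of few reads, to 0.84), but its 4 analysed sgRNAs were all positive, so that summaries over them could not turn its sign. TM2D1 turned sign under 1, the median over sgRNAs, and TM2D2 under 2, the median and without the strongest sgRNA. Leaving out each sgRNA in turn, chosen after the data were seen, gave 0.52 to 0.84 for TM2D3, −0.37 to −0.00117 for TM2D1 and −0.11 to 0.01 for TM2D2. No gene of the 3 lists was called under any of 6 alternatives, although against olfactory receptor sgRNAs the calls over all genes were 9 in the top and 41 in the bottom direction, in place of 18 and 72. No paired analysis was possible because each group holds 1 library.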
